A study of Mus musculus with 4 samples.

Results

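The Toll-like receptor genes of the mouse were examined in RAW264.7 macrophages 4 h after lipopolysaccharide (LPS), as 10 genes chosen by name (Tlr1 to Tlr9 and Tlr13). They were read by 15 of the 45281 probes on the array, every probe whose annotated symbol, current or older, was one of these names, and they are 10 of the 20289 genes that carried a named probe. Of the 10 genes, 7 were detected in LPS-treated cells and 6 in untreated cells. Tlr1, Tlr3 and Tlr6 were higher with LPS, Tlr4 and Tlr13 were lower, Tlr2 and Tlr7 did not pass the test, and Tlr5, Tlr8 and Tlr9 were not detected in either condition. The signals of Tlr3 were close to background, Tlr4 did not pass under every alternative setting, and the dimmer Tlr13 probe did not pass.

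Total RNA was hybridised to 4 one-colour Illumina bead arrays, 2 of cells given LPS from Salmonella minnesota at 10 ng/ml for 4 h and 2 of untreated cells given 0 ng/ml. The sample labels give 0 h for the untreated cells, whereas the treatment protocol gives both doses the same 4 h. All 4 arrays are labelled RAW264.7, a mouse macrophage line, and the study's methods describe the cells as RAW G9, a line grown from a single cell of RAW264.7. The cells of both conditions carry a GFP fusion of RelA and an mCherry reporter driven by the Tnf promoter. The methods call the arrays biological duplicates, named A and B in each condition.

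The 2 LPS arrays lay on slides 1 and 2 and both untreated arrays on slide 3, so slide and treatment cannot be told apart. The LPS arrays were also dimmer. Their median signals were 104 and 105 units, against 118 and 114 units on the untreated arrays, and their 95th percentiles were 778 and 693 units, against 1416 and 1147 units. The number of probes detected was 17717 and 16380 on the LPS arrays and 17892 and 17661 on the untreated arrays. Of 8 macrophage marker genes, 7 were detected in both conditions (all but Mertk), with a summed signal of 38208 to 39775 units with LPS and 46242 to 53272 units without. None of the markers of dendritic cells (6 genes), B cells (3 with a named probe), T cells (5), NK cells (2), mast cells (5) or fibroblasts (5) was detected in either condition. Of 6 neutrophil markers, S100a8 and Elane were detected in both conditions, at a summed signal of the list of 668 to 670.04 units with LPS and 721 to 729 units without. Of 5 epithelial markers, 3 were detected with LPS and 2 without (sums of 537 to 542 units and 575 to 618 units), and of 5 endothelial markers, 1 with LPS and 3 without (sums of 522 to 524 units and 596 to 612 units). The part of such signals in the results was not tested.

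Toll-like receptors are single-pass membrane proteins that bind microbial molecules through leucine-rich repeats and signal through a cytosolic TIR domain. Some are displayed at the cell surface. TLR2 pairs with TLR1 to bind triacylated lipopeptides and with TLR6 to bind diacylated ones, TLR4 together with MD-2 binds LPS, and TLR5 binds flagellin. Others sit in endosomes and bind nucleic acids, namely TLR3 (double-stranded RNA), TLR7 (single-stranded RNA), TLR9 (DNA with unmethylated CpG) and, in the mouse, TLR13 (bacterial ribosomal RNA). TLR8 senses single-stranded RNA in human cells. The adaptor MyD88 serves all of them except TLR3, which signals through TRIF, an adaptor that TLR4 also uses from endosomes.

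Motifs of factors active in macrophages were searched in the promoter windows of the members. The promoters of the 3 genes that were higher with LPS, and that of Tlr2, are shown. Tlr1 and Tlr6 had a second window, and for each the window that held a match is shown. The windows, 250 bases before to 50 after the start of the gene, come from RefSeq (GRCm38.p6). It gave windows for 8 of the 10 genes, all but Tlr4 and Tlr7. Each window shown is printed 5′ to 3′ on the strand of the gene, the minus strand in every case, and capitals mark the motif matches. The Tlr1 window is chr5:64933509-64933808, that of Tlr6 is chr5:64959117-64959416, that of Tlr3 is chr8:45410331-45410630 and that of Tlr2 is chr3:83841559-83841858.
Tlr1: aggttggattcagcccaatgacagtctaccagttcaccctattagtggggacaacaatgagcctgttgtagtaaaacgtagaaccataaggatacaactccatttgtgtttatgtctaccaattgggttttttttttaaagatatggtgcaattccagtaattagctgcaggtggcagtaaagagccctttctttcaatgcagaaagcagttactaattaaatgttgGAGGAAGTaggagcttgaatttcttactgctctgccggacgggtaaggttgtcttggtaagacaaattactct
Tlr6: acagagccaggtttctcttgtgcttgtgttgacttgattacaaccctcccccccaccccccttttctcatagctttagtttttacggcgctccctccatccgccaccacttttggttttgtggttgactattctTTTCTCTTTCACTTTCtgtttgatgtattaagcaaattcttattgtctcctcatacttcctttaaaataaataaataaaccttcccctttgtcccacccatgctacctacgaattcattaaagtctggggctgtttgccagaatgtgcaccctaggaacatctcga
Tlr3: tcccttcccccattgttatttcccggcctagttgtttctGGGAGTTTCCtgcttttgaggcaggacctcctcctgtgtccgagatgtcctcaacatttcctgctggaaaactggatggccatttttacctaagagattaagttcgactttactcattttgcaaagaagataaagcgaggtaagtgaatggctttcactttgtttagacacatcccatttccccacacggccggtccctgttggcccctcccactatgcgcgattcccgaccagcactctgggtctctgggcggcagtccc
Tlr2: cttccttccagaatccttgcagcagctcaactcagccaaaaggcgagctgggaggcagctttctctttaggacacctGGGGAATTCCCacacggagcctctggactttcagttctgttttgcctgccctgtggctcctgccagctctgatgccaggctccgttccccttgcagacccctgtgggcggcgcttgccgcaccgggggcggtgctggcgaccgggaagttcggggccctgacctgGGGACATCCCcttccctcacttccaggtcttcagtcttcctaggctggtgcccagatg
Both strands were searched for the NF-κB consensus, for the core of the interferon-stimulated response element (ISRE), which is GAAA followed after any 2 bases by another GAAA, and for a core bound by the myeloid factor PU.1, GAGGAAGT. Tlr1 held 1 PU.1 core, 23 to 16 bases before its start, and Tlr6 held 2 overlapping ISRE cores on the opposite strand, between 116 and 101 bases before its start. Tlr3 held 1 match to the NF-κB consensus, 211 to 202 bases before its start. Tlr2, which did not pass the test, held matches to it in 2 places, a pair of overlapping ones between 173 and 163 bases before its start and another that begins 8 bases before the start and runs past it. The second windows of Tlr1 and Tlr6 and the windows of Tlr5, Tlr8 and Tlr13 held none of the 3 motifs, and that of Tlr9 held a PU.1 core after its start. In all 32851 promoters of the same table, the NF-κB consensus occurred in 8.46%, the ISRE core in 3.44% and the PU.1 core in 3.2%. A match describes the letters and not a bound site.

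The signal of a probe is the mean brightness of its beads on a linear scale, with a median of 43 to 44 beads behind a probe, and detection is a p under 0.1 against the negative-control beads of the same array, required on both arrays of a condition. Levels of different probes cannot be ranked against each other, since probes differ in how well they bind. For the comparison, signals were background-corrected, quantile normalized and taken to log2, and limma tested the 17211 probes detected in at least 1 condition with Benjamini-Hochberg adjustment over all of them and a threshold of 0.05. With 2 arrays against 2, an exact permutation test of a single probe can give no p below 0.333 (two-sided), so the calls rest on the spread that limma shares across probes.

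**Figure D1:**
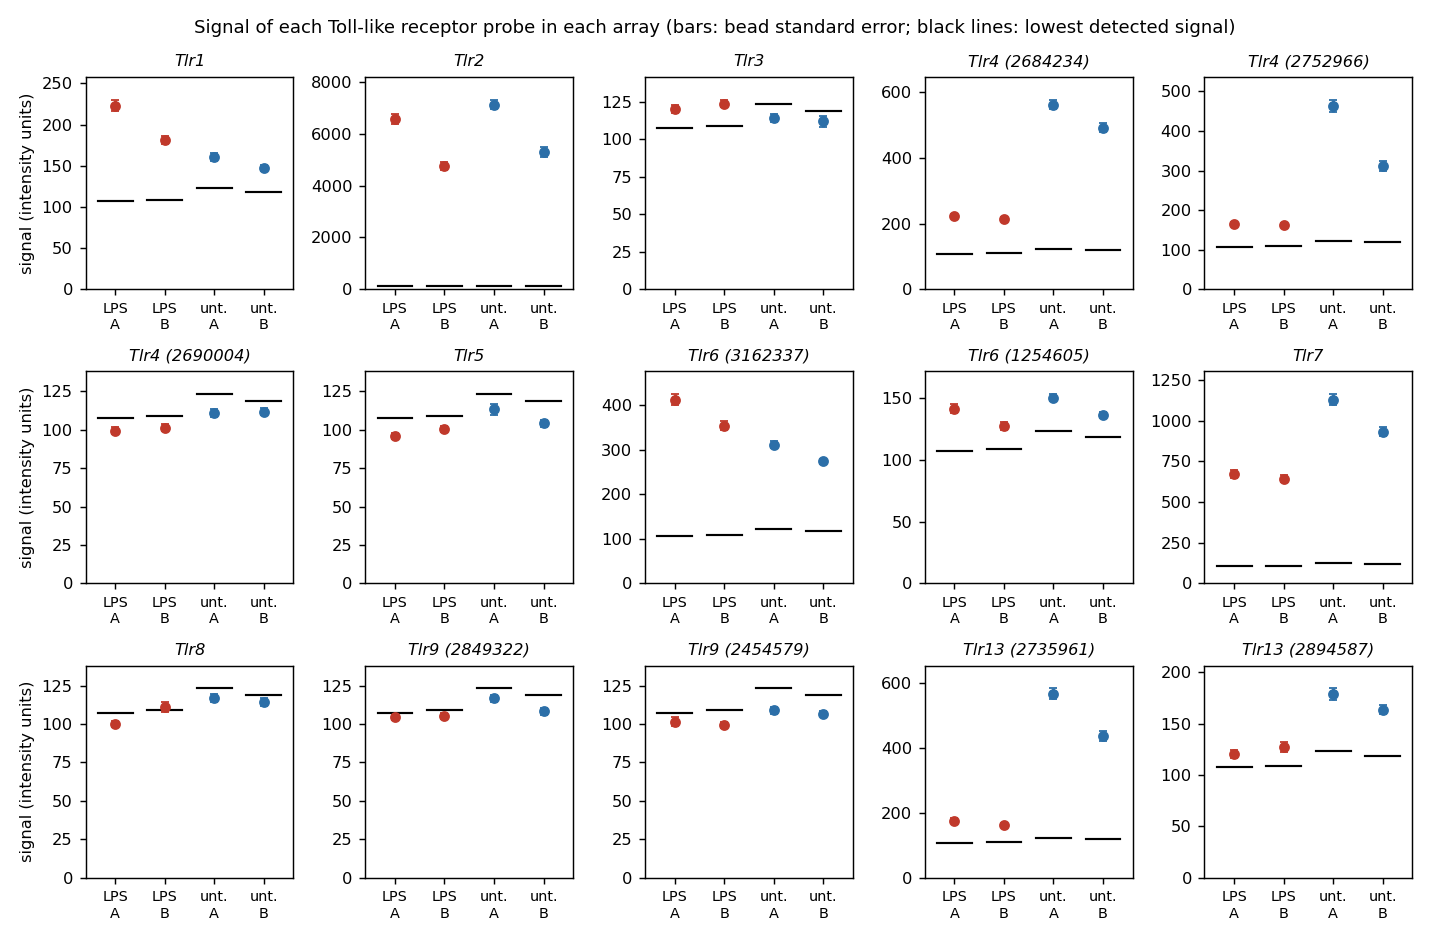
Signal of each of the 15 probes (linear intensity units, vertical axis from 0) in LPS arrays A and B (red) and untreated arrays A and B (blue), with bars for the bead standard error and black lines for the lowest signal that counted as detected on that array. Tlr4, Tlr7 and Tlr13 have LPS arrays below the untreated ones, and the LPS arrays were dimmer as a whole. Tlr1 and the brighter Tlr6 probe have LPS arrays above the untreated ones. The probes of Tlr5 and Tlr9 lie below the detection line on all 4 arrays.

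Tlr1 and Tlr6, the partners of TLR2 in lipopeptide recognition, were both higher with LPS. The probe of Tlr1 gave 223 and 181 units in LPS-treated cells, against 161 and 147 units in untreated cells, with bead standard errors of 3.95 to 6.88 units. Both LPS arrays lay above both untreated arrays, although the LPS arrays were dimmer as a whole. After normalization Tlr1 stood at 7.55 and 7.26 with LPS and at 5.52 and 5.55 without, on the log2 scale. The change was 1.87 ± 0.15 (SE; 95% interval 1.52 to 2.22, limma adjusted p = 0.000129), a 3.66-fold higher level. It passed under all 14 alternative settings, with values between 0.85 (the deposited table) and 2.06.

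The brighter of the 2 probes of Tlr6 (ILMN_3162337) gave 413 and 354 units with LPS, against 311 and 274 units without. The arrays did not overlap here either. Its normalized log2 values were 8.80 and 8.76 in LPS-treated cells and 7.15 and 7.26 in untreated cells, a change of 1.58 ± 0.13 (SE; 95% interval 1.27 to 1.88, limma adjusted p = 0.000164) or 2.98-fold, and it passed under all 14 alternatives (0.70 to 1.62). The other probe (ILMN_1254605) was close to background, at 141 and 127 units with LPS and 150 and 136 units without, so that its raw signals overlapped between conditions. Its normalized log2 values were 6.17 and 5.88 with LPS and 5.31 and 5.23 without, a smaller change in the same direction (0.76 ± 0.15, SE, limma adjusted p = 0.00872).

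The call of that dim Tlr6 probe was lost with median scaling in place of quantile normalization (0.15), with the slide as a random block (limma adjusted p = 0.0554) and without untreated array A (0.72, limma adjusted p = 0.0794) or B (0.69, limma adjusted p = 0.108). Over its 14 alternatives the adjusted p ran between 0.000246 and 0.557. Tlr1 and Tlr6 are neighbouring and closely related genes. Probe sequences were not used here, so binding of one gene's RNA to the other's probe was not tested.

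Tlr2, the shared partner of both, was far above background on every array and did not pass the test. It gave 6583 and 4763 units in LPS-treated cells and 7127 and 5305 units in untreated cells, so that the raw signals overlapped. Normalized log2 values were 12.89 and 12.52 with LPS and 12.42 and 12.24 without, a difference of 0.37 ± 0.17 (SE; 95% interval -0.02 to 0.76, limma adjusted p = 0.131). The sign and the call of Tlr2 changed with the normalization. Median scaling gave -0.031, where the median of all tested genes was -0.70, and median scaling over the tested probes, an alternative chosen after seeing the data, gave 0.77 (limma adjusted p = 0.00176), where that median was 0.10. Relative to the median of all tested genes, Tlr2 was higher by 0.46 with quantile normalization and by 0.67 with median scaling. The median scalings differ from each other only by a constant on each array, so this relative value is the same in both by construction. Without LPS array B the difference of Tlr2 was 0.53 and passed. That fit takes its spread from the untreated arrays alone, which share slide 3. Over the 14 alternatives the adjusted p ran between 0.00176 and 0.91.

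**Figure D2:**
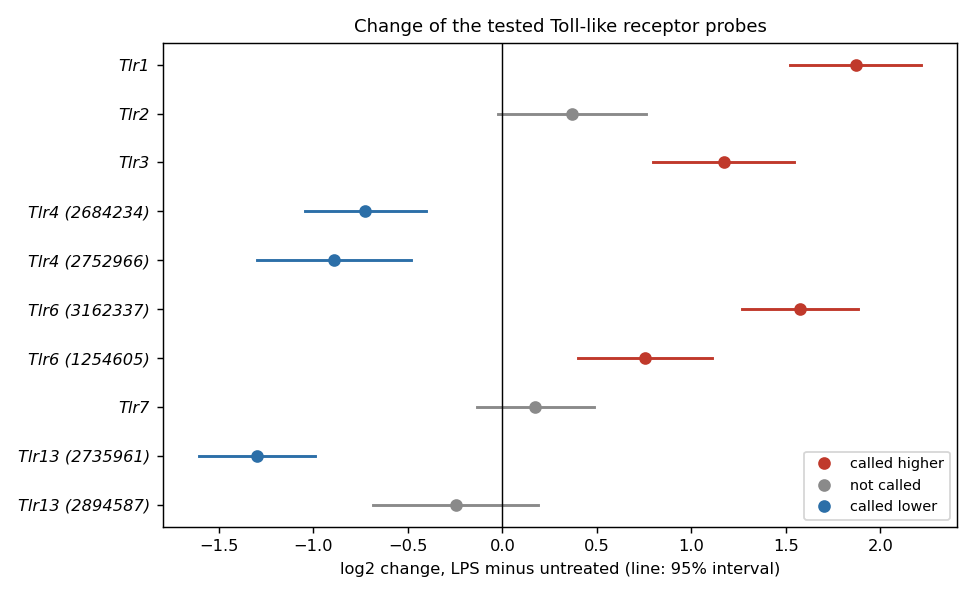
Change of each of the 10 tested probes on the log2 scale (LPS minus untreated) with its 95% interval from the limma fit, coloured by call (red higher, blue lower, grey not called). The intervals of Tlr2, Tlr7 and the dimmer Tlr13 probe include 0.

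Tlr4, the receptor of the stimulus, was lower with LPS by both of its detected probes. The brighter (ILMN_2684234) gave 222 and 214 units in LPS-treated cells, against 563 and 493 units in untreated cells. The second (ILMN_2752966) gave 166 and 163 units with LPS, against 463 and 311 units without. Neither probe overlapped between conditions in raw signal, but the LPS arrays were dimmer as a whole. In RNA from whole cultures, fewer cells that express a gene and less RNA per cell cannot be told apart. Normalized log2 values of the brighter probe were 7.54 and 7.70 with LPS and 8.29 and 8.40 without, a change of -0.73 ± 0.14 (SE; 95% interval -1.05 to -0.40, limma adjusted p = 0.00692). The second probe changed by -0.89 ± 0.17 (SE, limma adjusted p = 0.00796). The third probe of Tlr4 (ILMN_2690004) was not detected, at 99.3 and 101 units with LPS and 111 and 112 units without, and was not tested.

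Both Tlr4 probes stayed lower under all 14 alternatives, between -1.60 and -0.50 for the brighter and between -1.74 and -0.54 for the second, but not always past the threshold. With the slide as a random block the limma adjusted p was 0.0585 for the brighter probe and 0.0772 for the second. Without untreated array A both missed the threshold (0.0535 and 0.0864), and without untreated array B the brighter one did (-0.67, limma adjusted p = 0.103). Over all alternatives, the adjusted p ran between 2.41e-06 and 0.103 for the brighter probe and between 4.35e-06 and 0.0864 for the second. Tlr5, the flagellin receptor, was not detected on any array, with 95.9 and 100.2 units in LPS-treated cells and 113 and 104 units in untreated cells, and detection p between 0.49 and 0.929.

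Among the endosomal receptors, Tlr3 was detected only in the LPS-treated cells. It gave 119.7 ± 2.64 and 123.6 ± 2.50 units with LPS (bead SE), at detection p of 0.00321 and 0.00214. In untreated cells it gave 114.1 ± 2.41 and 111.8 ± 3.89 units, at detection p of 0.431 and 0.397. All 4 signals were close to background, since the lowest signal that counted as detected was 107 and 109 units on the LPS arrays and 123 and 119 units on the untreated arrays. Tlr3 entered the test through its LPS arrays alone. Its normalized log2 values were 5.34 and 5.70 with LPS, against 4.34 and 4.36 without, a change of 1.17 ± 0.16 (SE, limma adjusted p = 0.00164). The untreated cells give only an upper limit, set by the dimmest detected probe of each array, and against it the level was at least 1.93-fold higher on these values. The size depends on the processing, since the same limit gave at least 1.18-fold on the log2 values of the deposited table and the raw signals had a ratio of 1.08. The change passed under all 14 alternatives, at adjusted p between 3.8e-06 and 0.0246, but was 0.35 with no background correction, 0.32 with the deposited table, 0.56 with an offset of 50 and 0.86 with median scaling, and up to 1.66 with median scaling over the tested probes.

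Tlr13, the mouse receptor for bacterial ribosomal RNA, was lower with LPS by its brighter probe. Its brighter probe (ILMN_2735961) gave 177 and 164 units in LPS-treated cells, against 568 and 438 units in untreated cells. These raw signals did not overlap, but the LPS arrays were dimmer as a whole. Normalized log2 values were 6.94 and 6.95 with LPS and 8.30 and 8.19 without, a change of -1.30 ± 0.13 (SE; 95% interval -1.61 to -0.99, limma adjusted p = 0.000406), or a level of 0.406 times that of untreated cells. Unlike Tlr4 it passed under all 14 alternatives, between -2.16 and -0.84.

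The dimmer Tlr13 probe (ILMN_2894587) gave 120 and 127 units with LPS, against 178 and 164 units without. Its raw LPS signals were below the untreated ones, but its normalized log2 values overlapped, at 5.37 and 5.88 with LPS and 5.84 and 5.90 without (-0.25 ± 0.19, SE; 95% interval -0.69 to 0.19, limma adjusted p = 0.346). The 2 probes of Tlr13 therefore gave different calls. The dimmer one passed with median scaling (-0.88, limma adjusted p = 0.000845), where the median of all tested genes was -0.70. With median scaling over the tested probes it did not pass (-0.08, limma adjusted p = 0.739). It stood at -0.54 and passed without LPS array B, and stood at 0.0093 without LPS array A. Both of these fits take their spread from the untreated arrays alone, which share slide 3.

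Tlr7, the receptor for single-stranded RNA, was detected on all 4 arrays and did not pass the test. Its signals were 672 and 644 units in LPS-treated cells, against 1129 and 932 units in untreated cells. The raw signals were lower with LPS, whereas the normalized log2 values of 9.61 and 9.72 with LPS lay just above those of 9.47 and 9.51 without. The difference was 0.17 ± 0.13 (SE; 95% interval -0.13 to 0.48, limma adjusted p = 0.345). Under median scaling it was -0.60 (limma adjusted p = 0.0126), where the median of all tested genes was -0.70, and relative to that median Tlr7 stood 0.11 higher. Its adjusted p over the 14 alternatives ran between 0.0126 and 0.699. With quantile normalization Tlr7 stood 0.26 above the median gene.

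Tlr8 and Tlr9 were not detected in either condition. Tlr8 gave 99.8 and 111 units with LPS and 117 and 114 units without, and only LPS array B had a detection p under 0.1 (0.0534). Without LPS array A it was detected on the array left and had a change of 0.40 (limma adjusted p = 0.0259), a value that rests on 1 LPS array. The probes of Tlr9, the receptor for CpG DNA, gave 104 and 105 units (ILMN_2849322) and 101 and 99.3 units (ILMN_2454579) with LPS, against 117 and 108 units and 109 and 107 units without. Their detection p lay between 0.239 and 0.827. Receptors not detected here may still be present below the background of the array.

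**Figure D3:**
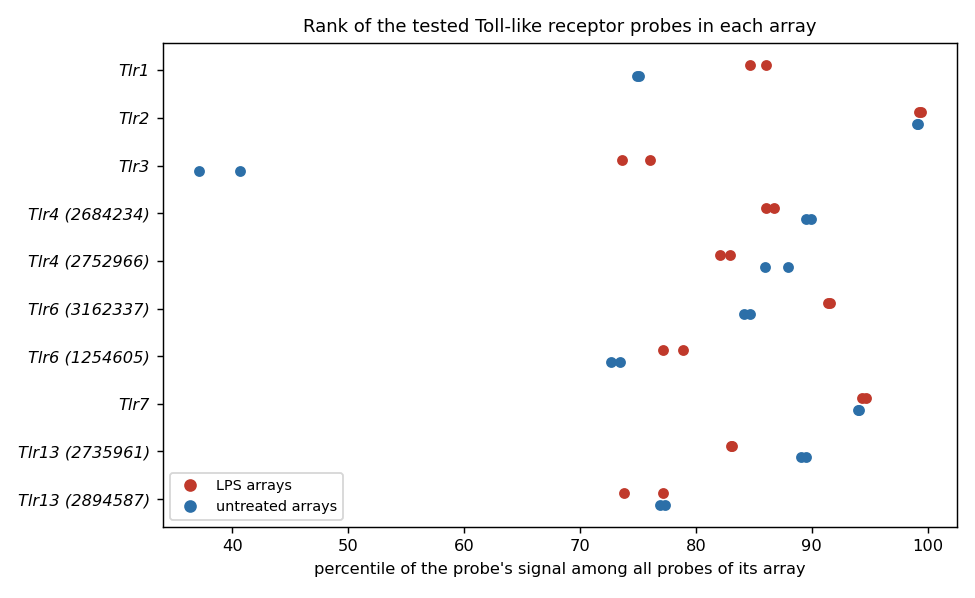
Place of each of the 10 tested probes among all 45281 probes of an array, as a percentile of signal, in LPS-treated (red) and untreated cells (blue). Tlr1 stood at 86.1 and 84.7 with LPS and at 74.9 and 75.1 without, and Tlr13 (brighter probe) at 83.0 and 83.1 with LPS and at 89.5 and 89.1 without.

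Counted as genes, each by its brightest tested probe, 3 of the 7 tested members were higher with LPS and 2 were lower, where 13.7% of the 9729 genes tested were higher and 21.4% were lower. The median change of the 7 was 0.37 on the log2 scale, against -0.09 over all tested genes. These counts hold Tlr3, which passed the detection filter only through the arrays in which it was high. Among the 6 members detected in both conditions 2 were higher and 2 were lower, with a median of 0.27, where 14.4% and 22.2% of the 8280 genes detected in both were higher and lower, with a median of -0.09. Counted as probes, with Tlr3 among them, 4 of 10 were higher and 3 were lower, where 13.5% and 19% of all tested probes were. In the cell-surface group Tlr1 and Tlr6 were higher and Tlr4 was lower. In the endosomal group Tlr13 was lower, and the only higher call was that of Tlr3, whose signals were close to background. For detection the shares over all named genes were 43.2% with LPS and 45.7% without. The genes whose normalized pattern over the 4 arrays was nearest to that of Tlr1, out of 9728, were Smox, Marchf5 and Whamm, with changes of 1.92, 1.89 and 1.86 and Euclidean distances of 0.06, 0.09 and 0.11 between centred log2 values.

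**Figure D4:**
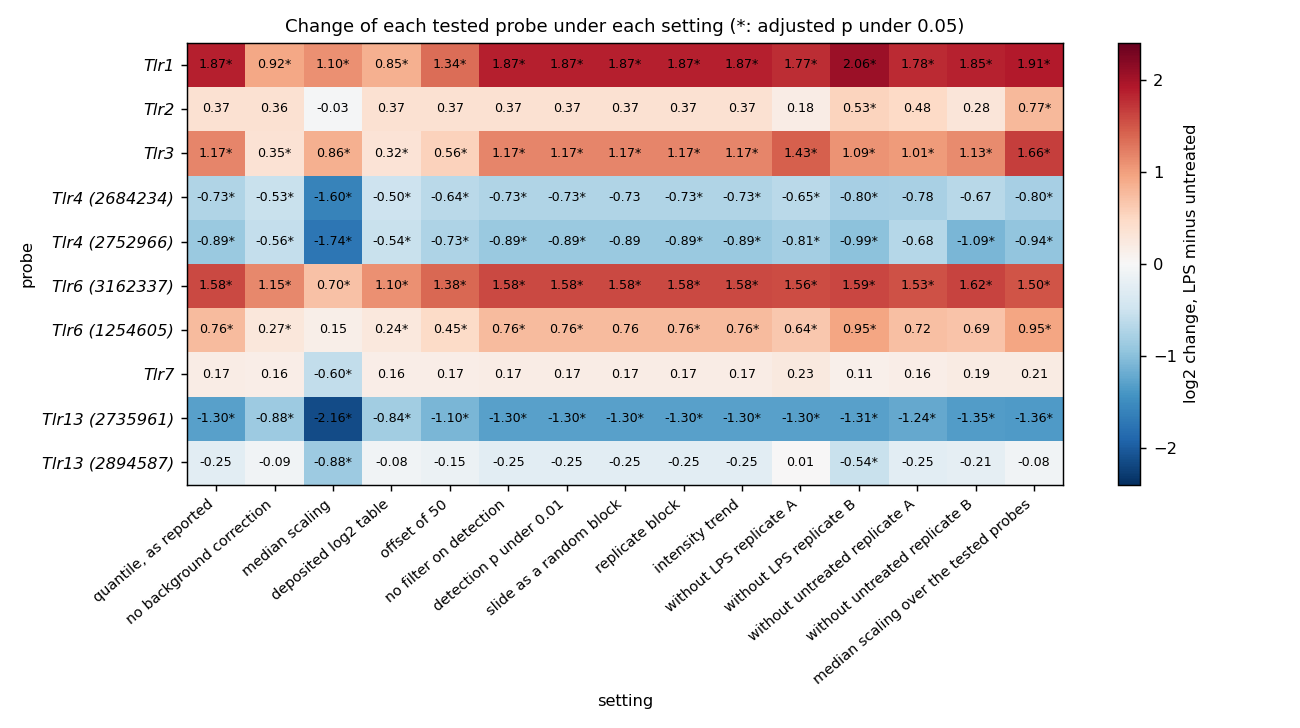
Log2 change (LPS minus untreated) of each tested member probe under the limma fit as described and under each alternative, with a star where the adjusted p was under 0.05. Tlr1, Tlr3, the brighter Tlr6 probe and the brighter Tlr13 probe carry a star in every column, and Tlr4 loses its stars with the slide as a random block.

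Genes that serve the receptors were followed in 6 lists. Of 49 genes, 46 had a named probe and 41 were tested. Of these, 10 were higher with LPS (24.4%, against 13.7% of all tested genes) and 8 were lower (19.5%, against 21.4%), with a median change of 0.17. Of the 39 detected in both conditions, 9 were higher and 8 lower, where 14.4% and 22.2% of the 8280 genes detected in both were. Many of these calls depended on the setting. With median scaling 6 of the 10 higher calls were lost (Cd180, Myd88, Pik3ap1, Irak3, Tab2 and Tbk1) and all 8 lower calls passed. Under that setting 4.95% of all tested genes were higher and 62.7% were lower. With the slide as a random block the higher calls of Socs1 and Tab2 were lost, as they were without either untreated array, and that of Ticam1 was also lost without untreated array B. With the slide as a random block 0 of the 8 lower calls passed in limma, and they were also lost without either untreated array.

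Among co-receptors and ligand delivery, 1 of 4 tested genes was higher and none was lower, where 13.7% and 21.4% of all tested genes were. Cd180, which sits at the surface with MD-1 and resembles TLR4 in its outer part, changed by 1.02 (limma adjusted p = 0.00374) by its brightest probe. Its raw signals overlapped, at 564 and 647 units with LPS and 638 and 529 units without, and median scaling gave 0.20 (limma adjusted p = 0.391). Its other tested probes changed by 0.50 and 0.46 and did not pass (limma adjusted p = 0.0923 and 0.12). Cd14 (0.32), Ly96, which encodes MD-2 (0.35), and Ly86, which encodes MD-1 (0.17), did not pass. Of 13 tested genes for folding, transport and cleavage of the receptors, 0 were higher and 5 were lower by limma, where 21.4% of all tested genes were lower, and none of the 5 passed with the slide as a random block. Lgmn, a lysosomal endopeptidase that cleaves endosomal receptors, changed by -0.75 (limma adjusted p = 0.0255) and Pdia4, a disulfide isomerase of the endoplasmic reticulum, by -0.60 (limma adjusted p = 0.014). Unc93b1, which carries endosomal receptors out of the endoplasmic reticulum, did not pass (0.21, limma adjusted p = 0.363).

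Over all tested genes, 13.7% were higher and 21.4% were lower. Calls among the TIR adaptors went both ways. Of 5 tested, 3 were higher, namely Pik3ap1 (BCAP), which links receptors to phosphoinositide kinase signalling, by 1.22, Ticam1 (TRIF) by 0.97 and Myd88 by 0.86 (0.44, 0.48 and 0.44 with median scaling), and 1 was lower, Ticam2 (TRAM), which bridges TLR4 to TRIF, by -0.67 (limma adjusted p = 0.00993). Raw signals of Ticam1 were close to background and overlapped, at 126 and 128 units with LPS and 136 and 121 units without. Those of Pik3ap1 also overlapped, at 984 and 889 units with LPS and 898 and 660 units without, and those of Myd88 did not. Other tested probes of Pik3ap1, Ticam1 and Myd88 changed by 1.13, 0.46 and 1.76. Tirap, the bridging adaptor between TLR4 and MyD88, did not pass (0.38). Of 4 tested inhibitors, 2 were higher, where 13.7% of all tested genes were. Irak3 (IRAK-M) changed by 1.28 (limma adjusted p = 0.00275), and by 0.41 with median scaling (limma adjusted p = 0.092). Its raw signals overlapped, at 257 and 297 units with LPS and 275 and 228 units without. Socs1 entered the test through its LPS arrays alone, with raw signals of 121 and 111 units with LPS and 115 and 114 units without, which overlap. It changed by 0.74 (limma adjusted p = 0.0286), and the call was lost with the slide as a random block (limma adjusted p = 0.0952) and without untreated array A or B (limma adjusted p = 0.185 and 0.138).

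The 4 ubiquitin ligases that act on receptors or their adaptors gave no call. Among 11 tested signal kinases and factors, 4 were higher and 2 were lower, where 13.7% and 21.4% of all tested genes were. The rises were led by Irf7, a transcription factor of the interferon response (2.99, limma adjusted p = 1.15e-05), Irak2 (1.98, limma adjusted p = 5.13e-05) and the kinase Tbk1 (0.84, limma adjusted p = 0.00358). With median scaling Irf7 and Irak2 still passed, at 2.20 and 1.17, and Tbk1 stood at 0.21 (limma adjusted p = 0.362). The raw signals of Tbk1 overlapped, at 1948 and 1662 units with LPS and 1792 and 1594 units without. The falls were Tab1 (-0.52) and Tab3 (-0.46), subunits that bind the kinase TAK1.

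**Figure D5:**
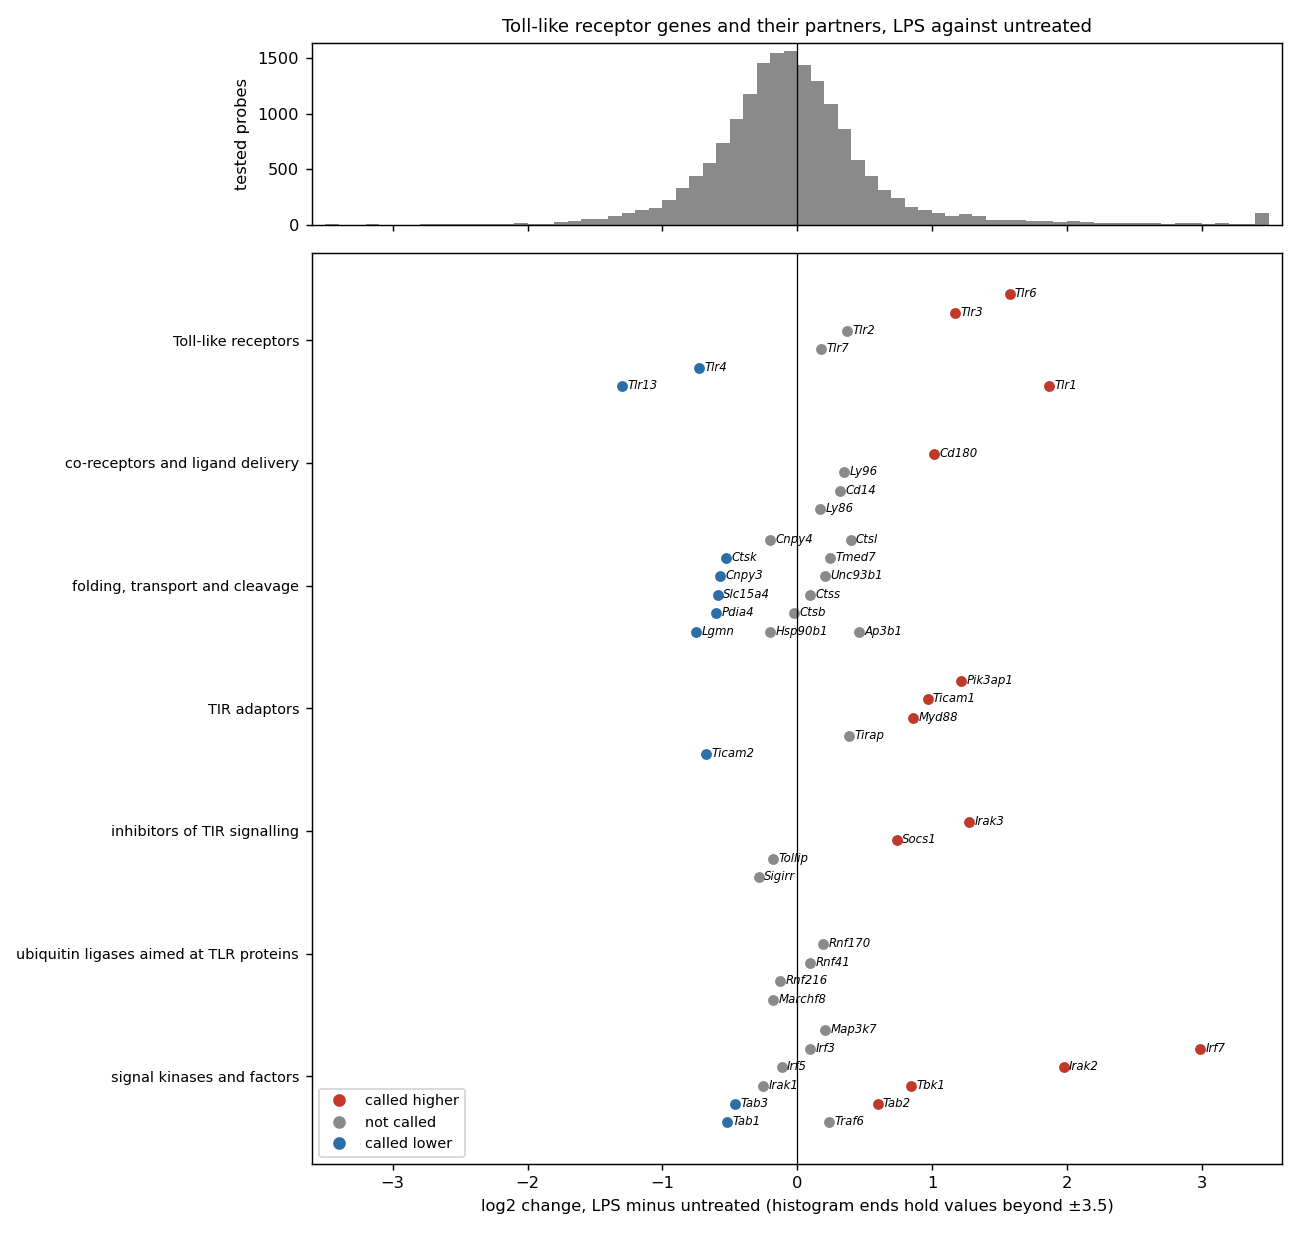
Log2 change (LPS minus untreated) of the 7 tested receptor genes and of the 41 tested partner genes by list, coloured by call, below a histogram of all 17211 tested probes on the same axis. The folding, transport and cleavage list holds 5 lower and 0 higher calls, where 21.4% and 13.7% of all tested genes were lower and higher. Irf7 lies farthest to the right at 2.99.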

How the data were processed

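The authors read the scanned images with GenomeStudio 2011.1. The deposited file of each array holds the signal intensity and bead standard error of every probe on a linear scale, with no background subtraction visible. It also holds the deposited detection p-value, which compares a probe with the negative controls of its array, and the deposited count of beads. Their table of all arrays, deposited as log2 values with 1 common distribution, served as an alternative.

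Probes were named from the platform annotation, with symbols updated through RefSeq (GRCm38.p6). Of 45281 probes, 35784 had 1 symbol, 0 had several and 9497 had none. Signals went through neqc of limma 3.58.1 (R 4.3.3), with inferred negative controls and an offset of 16, then lmFit and eBayes. The call of a gene is that of its brightest tested probe by mean log2 value. The fit was run on simulated data with independent noise on each array, no slide effect and no dimmer LPS arrays. That run therefore cannot speak to slide or brightness. The number of arrays limits the precision.

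Alternatives were no background correction, median scaling, the deposited log2 table, an offset of 50, no filter, detection p under 0.01, slide as a random block, a replicate block, an intensity trend, leaving out each array and, added after seeing the data, median scaling over the tested probes. With 3 slides among 4 arrays duplicateCorrelation gave no estimate, so the slide correlation of 0.741 was set from the spread of the LPS and untreated pairs. All extra spread of the LPS pair was credited to slide. Spread in the response to LPS cannot be told apart from it.

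All 10 receptor genes are named. Partner genes were named by up to 3 rises and 2 falls past the threshold in each list, and genes like Tlr1 by the 3 smallest distances. A few partners that did not pass are named beside their counts and were chosen after their values were seen. The members, lists and tests were chosen with earlier results of these data known.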

Additional observations from a re-analysis of the deposited data

How the results depend on the processing

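Of 140 values of the 10 tested probes under 14 alternatives, 124 kept their direction and side of the threshold. With the direction kept, 4 passed only under the alternative and 9 no longer passed. The other 3 changed sign, namely Tlr2 (-0.031) and Tlr7 (-0.60) with median scaling and the dimmer Tlr13 probe without LPS array A (0.0093, with -0.54 to 0.0093 over the arrays left out). Of these, Tlr7 also passed only under the alternative (limma adjusted p = 0.0126). Over all tested probes, 2332 were higher and 3273 lower. These counts were 819 and 10095 with median scaling and 1198 and 1264 with the slide as a random block, and 6002 were higher with median scaling over the tested probes. Leaving out 1 array gave between 1085 and 4032 higher and between 1013 and 4859 lower, the low ends without an untreated array. Members called lower numbered 1 with the slide block and between 1 and 2 with an array left out. With median scaling 3 members were called lower (Tlr4, Tlr7 and Tlr13), where 62.7% of all tested genes were. With median scaling over the tested probes 4 were called higher (Tlr1, Tlr2, Tlr3 and Tlr6), where 31.5% of all tested genes were. Partner genes numbered 4 higher and 22 lower with median scaling, where 4.95% and 62.7% of all tested genes were. With the slide block 0 partner genes were lower, where 8.8% of all tested genes were. The letters A and B are shared by both conditions, but nothing says that they pair the arrays (correlation of deviations 0.145). With a replicate block 2639 probes were higher and 3689 lower, with 3 members higher and 2 lower, and no call of a member probe changed. Precision rests on 2 arrays a condition, and signals near background limit Tlr3, Tlr5, Tlr8, Tlr9 and the dimmer probes.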

Other observations

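Tlr11 and Tlr12, the remaining Toll-like receptor genes of the mouse, which bind profilin of parasites, were not among the 10 genes and were not detected in either condition. Tlr11 gave 101 and 105 units with LPS and 112 and 114 units without, and Tlr12 gave 106 and 104 units with LPS and 123 and 111 units without.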
